A study of Rattus norvegicus with 192 samples.

Results

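Thyrotropin, luteinizing hormone and follicle-stimulating hormone are made in the anterior pituitary, and each is a pair of proteins. All of them share the alpha subunit, encoded by Cga. The specific beta subunits are encoded by Tshb in thyrotropes and by Lhb and Fshb in gonadotropes. The receptors that drive their release are Trhr, which binds hypothalamic thyrotropin-releasing hormone, and Gnrhr, which binds gonadotropin-releasing hormone. Thyroid hormone lowers Tshb and Cga transcription through feedback on thyrotropes, and thyrotropes also lie in the pars tuberalis, a sheath of tissue around the pituitary stalk. The 6 transcripts described here are these 4 subunits and 2 receptors, taken by gene symbol from a table of 17483 genes, where each of them had a row.

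The libraries came from adult male Crl:CD(SD) wild-type rats dosed once a day by oral gavage for 7 days, on postnatal days 56 to 62. Rats received 3 mg/kg PFOS (a persistent fluorinated surfactant) together with 8 mg/kg vancomycin (an antibiotic that stays largely in the gut), 3 mg/kg PFOS alone, 8 mg/kg vancomycin alone, or corn oil as vehicle. All groups were gavaged and kept on a reversed light and dark cycle. Each treatment had 12 pituitary libraries, made by bulk RNA barcoding, which counts polyadenylated transcripts at their 3′ end. The series as a whole holds 192 libraries from hypothalamus, pituitary, thyroid and liver, and its title names PFOS, the thyroid hormone axis and effects that differ between organs.

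All 48 pituitary libraries were above the minimum of 100000 counts. Their totals ran from 231929 to 2804779 counts (median 517282), with means of 735294 ± 662697 in PFOS plus vancomycin rats, 545865 ± 208330 in PFOS rats, 585996 ± 163226 in vancomycin rats and 458442 ± 182433 in vehicle rats (SD, n = 12 each). One PFOS plus vancomycin library, number 48, stood apart as the deepest, and in it growth hormone (Gh1) took 9.23% of counts, against 29.1% ± 5.28 over all 48 (SD). Every treatment occupied a separate plate row, so plate row and treatment effects cannot be told apart. The pituitary label was borne out by its hormones: Gh1 averaged 291101 ± 52840, Prl 45688 ± 9727 and Pomc 10008 ± 5922 counts per 1000000 (CPM; SD, n = 48). Markers of the neural lobe summed to between 0.00289% and 0.00355% of counts as group means.

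The promoters are shown so that members that varied together across libraries can be set side by side. RefSeq's promoter table (build GRCr8) matched 4 of the 6 members; Fshb and Trhr are named only. The 220 bases before the annotated start are printed for each, 5′ to 3′ on the strand of the gene, with matches to the searched motifs in capitals. One is the element of steroidogenic factor 1 (SF1, a nuclear receptor of gonadotropes encoded by Nr5a1), which was read as CAAGGNCA. The core site that many other nuclear receptors bind was searched as AGGTCA. The site of GATA factors was searched as AGATAA. The cyclic AMP response element was searched as TGACGTCA. The TATA box, which positions the start of transcription, was searched as TATAAA. The element of EGR1, an early response factor, was searched as GCGNGGGNG, and both strands were read for all 6 motifs.
Lhb, chr1:105037237-105037456, plus strand: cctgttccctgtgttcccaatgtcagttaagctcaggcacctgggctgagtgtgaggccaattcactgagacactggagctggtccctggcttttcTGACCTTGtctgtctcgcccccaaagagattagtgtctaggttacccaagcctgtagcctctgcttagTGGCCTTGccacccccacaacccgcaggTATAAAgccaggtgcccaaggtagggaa
Cga, chr5:54283120-54283339, plus strand: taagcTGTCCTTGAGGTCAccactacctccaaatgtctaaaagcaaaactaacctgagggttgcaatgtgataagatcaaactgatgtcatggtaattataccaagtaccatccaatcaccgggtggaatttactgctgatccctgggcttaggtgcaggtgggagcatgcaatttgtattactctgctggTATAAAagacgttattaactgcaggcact
Tshb, chr2:192918055-192918274, minus strand: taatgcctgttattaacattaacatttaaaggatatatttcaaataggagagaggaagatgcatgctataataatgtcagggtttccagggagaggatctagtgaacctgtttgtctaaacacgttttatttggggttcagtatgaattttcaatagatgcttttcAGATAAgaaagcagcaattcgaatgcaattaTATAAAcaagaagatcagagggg
Gnrhr, chr14:22211446-22211665, plus strand: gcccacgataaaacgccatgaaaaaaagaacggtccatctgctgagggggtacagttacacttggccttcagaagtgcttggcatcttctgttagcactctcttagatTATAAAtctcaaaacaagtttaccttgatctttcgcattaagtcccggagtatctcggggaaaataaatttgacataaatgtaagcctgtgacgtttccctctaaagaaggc

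In the Lhb promoter the SF1 element occurred 2 times on the reverse strand, as TGACCTTG at bases -124 to -117 and as TGGCCTTG at bases -56 to -49, counted back from the start. The first of these overlaps a core site. The table gives 2 starts for Lhb, and the upstream one is shown. Cga held 1 SF1 element at -215 to -208, with a core site directly after it at -207 to -202. Tshb held the GATA element at -54 to -49 and neither the SF1 element nor the core site in the 250 bases searched. TATA boxes lay at -28 to -23 in Lhb, -29 to -24 in Cga and -23 to -18 in Tshb, and much farther out, at -112 to -107, in Gnrhr. Of all 33469 promoter windows of that length, 5.6% held the SF1 element, 14.1% the core site, 10.3% the GATA element, 12.9% the TATA box, 9.4% the EGR1 element and 1.6% the cyclic AMP response element. The last of these and the EGR1 element matched in none of the 4 members. Only the exact letters given were searched, with any base at N, so variant forms of an element were not counted. A match is a description of the letters and not a measured binding site. Nr5a1 itself had 4 counts in all 48 libraries together, and Egr1 had 23.

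The alpha subunit was the most abundant of the 6 in every pituitary library. Cga averaged 18143 ± 4171 CPM, Tshb 6992 ± 2645, Lhb 5935 ± 1343, Fshb 526 ± 258, Gnrhr 66.5 ± 22.2 and Trhr 18.1 ± 7.88 CPM (SD, n = 48). CPM of 3′ counts are shares of a library and are not scaled by length, so levels are compared between genes on this count scale. Cga was above Tshb in 48 of 48 libraries, Lhb above Fshb in 48, Fshb above Gnrhr in 48 and Gnrhr above Trhr in 47. Tshb and Lhb did not separate, with Tshb the higher in 30 of 48. The 4 subunits together took 3.16% ± 0.707 of all counts (range 2.19% to 4.91%). Cga transcripts outnumbered the 3 beta subunits summed in every library, by a ratio of 1.37 ± 0.201 (range 1.08 to 1.86).

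Levels of Cga overlapped between all groups, with a wider span in PFOS plus vancomycin and vehicle rats than in PFOS or vancomycin rats. Its lowest, median and highest values were 12137, 15031 and 27552 CPM in PFOS plus vancomycin rats, 12929, 17836 and 22348 CPM in PFOS rats, and 13792, 19346 and 23564 CPM in vancomycin rats, against 12875, 18934 and 29136 CPM in vehicle rats. In PFOS plus vancomycin rats most libraries lay in the lower part of the vehicle range and 2 near its top. The mean was 16821 ± 4984 CPM in PFOS plus vancomycin rats and 19311 ± 5217 CPM in vehicle rats (SD, n = 12 each). The fitted log2 fold change was -0.25 ± 0.12 (SE), with an unadjusted p of 0.0416 and an adjusted p of 0.612 in edgeR's quasi-likelihood test with Benjamini-Hochberg adjustment over all genes, so it did not pass.

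Tshb, the subunit that thyroid hormone feedback controls most directly, varied 4.05-fold between libraries, with a narrower span in vancomycin rats than in the other groups. Values were 3163, 5890.2 and 12639.5 CPM (lowest, median, highest) in PFOS plus vancomycin rats, 3732, 6294 and 12720.0 CPM in PFOS rats, and 3828, 7812 and 9793 CPM in vancomycin rats, against 3355, 6706 and 12793 CPM in vehicle rats. All 4 groups overlapped. The log2 fold change against vehicle was -0.18 ± 0.22 with PFOS plus vancomycin, -0.04 ± 0.22 with PFOS and -0.05 ± 0.22 with vancomycin (SE). The 95% interval of the fold ran from 0.713 to 1.33 for PFOS and from 0.647 to 1.20 for PFOS plus vancomycin. Changes of Tshb within those limits are compatible with these libraries. The limits do not mark the smallest change that the test could call.

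The gonadotropin beta subunits differed in how steady they were. Lhb ran 3645, 6039 and 9028 CPM (lowest, median, highest) in PFOS plus vancomycin rats, 4144, 5459.7 and 8399 CPM in PFOS rats, and 3334, 6187 and 8366 CPM in vancomycin rats, against 3957, 6242 and 7457 CPM in vehicle rats. Fshb ran 339, 501 and 1650.4 CPM in PFOS plus vancomycin rats, 330.0, 529 and 961 CPM in PFOS rats, and 305, 454 and 717 CPM in vancomycin rats, against 236, 411 and 1371 CPM in vehicle rats. Groups overlapped for both genes, and 1 library in each of the PFOS plus vancomycin and vehicle groups lay far above the other Fshb values.

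The Lhb log2 fold change was -0.12 ± 0.13 with PFOS plus vancomycin, -0.10 ± 0.13 with PFOS and -0.05 ± 0.13 with vancomycin (SE), and for PFOS the 95% interval of the fold was 0.775 to 1.13. For Fshb the changes were 0.22 ± 0.24, 0.26 ± 0.24 and -0.07 ± 0.24 in the same order, none of them past the test. With library depth as a covariate, the Fshb value for PFOS plus vancomycin turned to -0.16, and without the deepest library it was -0.01. The ratio of Lhb to Fshb was 11.4 ± 3.89 in PFOS plus vancomycin rats, 10.8 ± 3.11 in PFOS rats and 13.4 ± 3.30 in vancomycin rats, against 15.05 ± 4.58 in vehicle rats (SD, n = 12 each), and was not tested because it carries the relation of Fshb to library depth.

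Of the receptors, Gnrhr had 11 to 361 counts per library and Trhr only 2 to 49. Gnrhr ran 29.9, 73.0 and 129 CPM (lowest, median, highest) in PFOS plus vancomycin rats, 22.7, 50.2 and 87.7 CPM in PFOS rats, and 42.9, 75.3 and 100.4 CPM in vancomycin rats, against 35.3, 61.5 and 116 CPM in vehicle rats. The PFOS group had the lowest median and the groups overlapped. Gnrhr in PFOS plus vancomycin rats against PFOS rats gave a log2 fold change of 0.40 ± 0.19 (SE), with an unadjusted p of 0.0373 and an adjusted p of 0.9999 in edgeR's test; without the deepest library it was 0.28 (unadjusted p = 0.149). Trhr ran 5.27, 19.3 and 39.1 CPM in PFOS plus vancomycin rats, 7.73, 12.9 and 34.8 CPM in PFOS rats, and 8.05, 18.2 and 24.2 CPM in vancomycin rats, against 8.15, 19.3 and 27.5 CPM in vehicle rats. For Trhr, counting error alone gave a coefficient of variation of 37.1% of a measured 44.05% within groups.

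**Figure D1:**
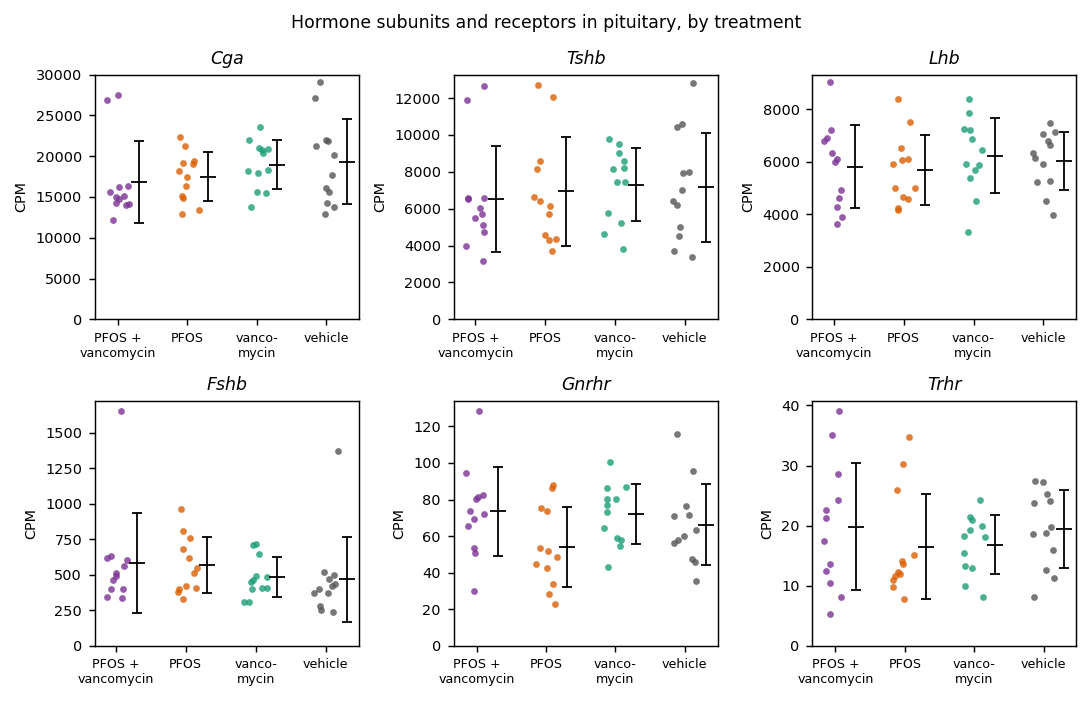
Level of each member in CPM (vertical axis) in the 12 pituitary libraries of each treatment; points are libraries and black bars are mean ± SD. Within each gene the 4 groups cover overlapping ranges, and single libraries at 1650.4 CPM with PFOS plus vancomycin and at 1371 CPM with vehicle stand above the other Fshb values.

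None of the 6 members passed the test in any of the 8 comparisons made, at an adjusted p under 0.05 in edgeR's test; all 6 had passed the filter on low counts. Against vehicle, 60 of 4380 genes (1.37%) were called with PFOS plus vancomycin, 52 (1.19%) with PFOS and 1 (0.0228%) with vancomycin. For PFOS averaged over both vancomycin states 63 genes were called (1.44%), and for vancomycin averaged over both PFOS states 0 were called (0%). No gene was called for PFOS plus vancomycin against vancomycin (0%), for PFOS plus vancomycin against PFOS (0%) or for the interaction of PFOS and vancomycin (0%); 295, 122 and 134 genes had an unadjusted p under 0.05 there, and 145 for vancomycin averaged over PFOS. At shares this low, no call among 6 genes does not set the members apart from the rest of the table. Of the 48 values of the 6 members in 8 comparisons, 2 had an unadjusted p under 0.05, the Cga and Gnrhr values given above. The lowest adjusted p was 0.574, for Cga with PFOS averaged over both vancomycin states, where the log2 fold change was -0.15 ± 0.09 (SE). In bulk tissue, fewer cells of a type and less RNA per cell cannot be told apart. The labels number the libraries without naming the animals, so p-values measure the spread between these samples.

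**Figure D2:**
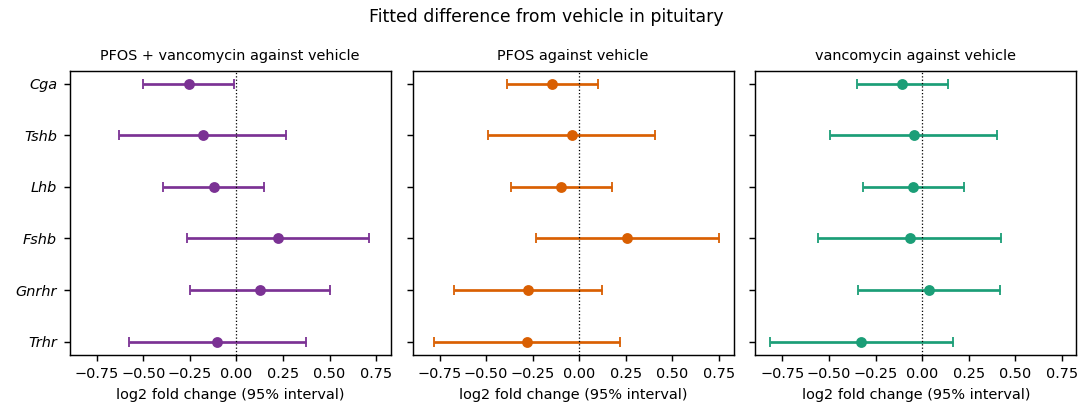
Log2 fold change of each member against vehicle (horizontal axis) with its 95% interval, fitted by edgeR over all 48 pituitary libraries. All intervals include 0 except that of Cga with PFOS plus vancomycin, whose value of -0.25 had an adjusted p of 0.612.

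Genes listed around these hormones were not called either. Between 0% and 1.44% of all 4380 genes were called per comparison, so this does not set the listed genes apart. Most genes of each list were absent or too low to test. In a list of 20 thyrotrope genes, which includes the transcription factor Pou1f1, the thyroid hormone receptor Thrb and the activating deiodinase Dio2, 7 were abundant enough to test and none was called in any comparison. Their median log2 fold change was -0.06 with PFOS plus vancomycin and 0.02 with PFOS, against 0.00 over all genes in both cases. Among 36 gonadotrope genes 6 were tested, among 31 genes of the signalling downstream of both receptors 14 were, and among 8 genes of other glycoprotein hormones, releasing hormones and hormone receptors 1 was, and none was called. That 1 gene was Gpha2, the alpha subunit of thyrostimulin, at 268 CPM; its partner subunit gene Gphb5 had 0 counts in all 48 libraries, which allows up to 3 counts. The inhibin and activin subunit genes Inha, Inhba and Inhbb, which regulate Fshb, had 139, 8 and 130 counts in all libraries together and were below the filter.

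Within treatment groups the 4 subunits differed between libraries by far more than counting error, and the receptors by a smaller margin. The within-group coefficient of variation was 49.6% for Fshb, 38.9% for Tshb, 23.1% for Lhb and 23.01% for Cga, where counting error alone gave 6.99%, 1.87%, 1.93% and 1.08%. For Gnrhr it was 32.3%, with 18.9% from counting, and for Trhr, as given above, most of it was counting error. In edgeR's estimate of the variation between libraries, Fshb lay above 97.2% of the 4380 tested genes and Tshb above 96% of them. This variation was partly shared. After each group's mean was subtracted, 5 of the 15 pairs of members were correlated across the 48 libraries (permutation test within groups, 100000 draws, adjusted over the 15 pairs).

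Tshb and Cga moved most closely together, with Pearson's r = 0.75 (permutation p = 1e-05, adjusted p = 0.00015) and Spearman's rho = 0.70 (permutation p = 1e-05, adjusted p = 0.00015). A p of 1e-05 is the smallest that these permutations can give. Within groups r was 0.78 in PFOS plus vancomycin rats, 0.60 in PFOS rats, 0.76 in vancomycin rats and 0.82 in vehicle rats (n = 12 each), and without the 2 libraries farthest out in Tshb it was 0.73. Of 3737 genes compared, Cga was the one most like Tshb and Tshb the one most like Cga. Next to Cga, the genes most like Tshb were Nmu, which encodes the peptide neuromedin U, with r = 0.54, and Cuta with r = 0.53. Next to Tshb, those most like Cga were Mob2 (r = 0.53) and Abhd4 (r = 0.52), and the least like it was Mettl9 (r = -0.48).

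The gonadotrope transcripts formed a second, looser set, tied to the first by the pair of Cga and Lhb. Cga had r = 0.06 with Fshb and r = 0.002 with Gnrhr, and neither passed. Lhb and Fshb had r = 0.46 (permutation p = 0.00136, adjusted p = 0.0068) and rho = 0.51 (permutation p = 0.00044, adjusted p = 0.0033). Lhb and Gnrhr had r = 0.46 (permutation p = 0.00122, adjusted p = 0.0068) and rho = 0.43 (permutation p = 0.00297, adjusted p = 0.0111). Fshb and Gnrhr had r = 0.43 (permutation p = 0.00336, adjusted p = 0.0126) and rho = 0.41 (permutation p = 0.00673, adjusted p = 0.0202). Without the 2 farthest libraries these r were 0.40, 0.46 and 0.45. All 3 pairs were positive in each treatment group, where r ran from 0.17 (Lhb and Gnrhr in vancomycin rats) to 0.80 (Lhb and Gnrhr in vehicle rats).

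Cga and Lhb, the partners in luteinizing hormone, had r = 0.41 (permutation p = 0.00515, adjusted p = 0.0154) and rho = 0.44 (permutation p = 0.00261, adjusted p = 0.0111), and r = 0.42 without the 2 farthest libraries. This pair was positive in 3 of the 4 groups: r was 0.63 in PFOS plus vancomycin rats, 0.43 in PFOS rats, -0.12 in vancomycin rats and 0.58 in vehicle rats. Tshb and Lhb, beta subunits of different cell types that both pair with Cga, had r = 0.12 (permutation p = 0.412, adjusted p = 0.562). Trhr passed with no other member: its r with Tshb was -0.20 (adjusted p = 0.449), at counts that leave much of its variation to counting error. The other pairs that did not pass lay between r = -0.17 and r = 0.25.

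**Figure D3:**
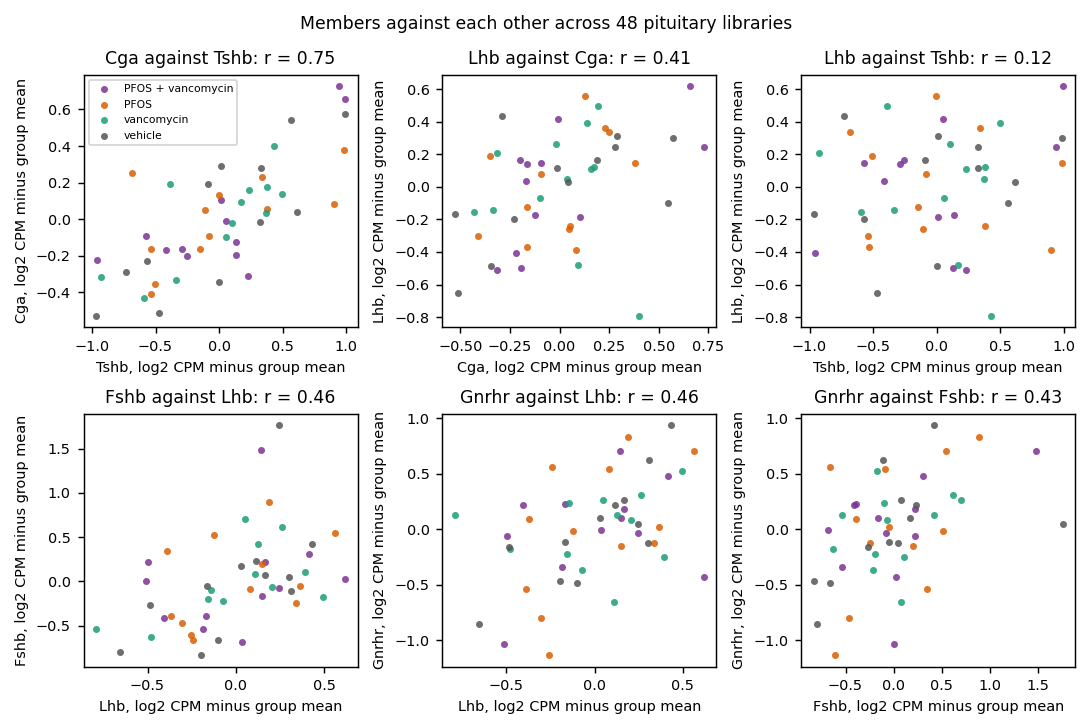
Each panel sets 2 members against each other across 48 pituitary libraries, in log2 CPM minus the mean of the library's treatment group, with colours for treatments. The Tshb and Cga points follow a line (r = 0.75), the gonadotrope pairs scatter more widely (r from 0.43 to 0.46), and Tshb with Lhb shows no passing relation (r = 0.12).

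Gnrhr was most like Lhb of all 3737 genes, and Fshb ranked 5th (both r as given above); its next neighbours after Lhb were Mesd (r = 0.45) and Itm2c (r = 0.44), and the least like it was Gpm6a (r = -0.50). For Lhb the nearest genes were Spp1, which encodes osteopontin (r = 0.61), Ifi27 (r = 0.60) and Rgs4, a regulator that shortens signalling by G proteins (r = 0.57), with Cstb at the other end (r = -0.54). For Trhr they were Cyb5a (r = 0.53), Gnl2 (r = 0.48) and Dnajc10 (r = 0.46), with Ndrg3 lowest (r = -0.47). The ranks of these nearest genes come from these libraries only and carry no test. Some of the relations behind them were tested: those between members above, and Lhb with Spp1 and with Rgs4 below, at the same r.

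Each of the 28 tested genes of the pathway lists was also set against each member, 168 relations in all, and 7 passed after adjustment; the relations named here were chosen after their values were seen. Lhb went with Spp1 (rho = 0.60, adjusted p = 0.00101; permutation p for r of 1e-05, adjusted p = 0.00042), with Rgs4 (permutation p = 6e-05, adjusted p = 0.00202; rho = 0.58) and with Scg2, which encodes secretogranin II of the secretory granules (r = 0.48, permutation p = 0.00058, adjusted p = 0.0139; rho = 0.45). All 3 were positive in each treatment group and all 3 passed with depth regressed out, with r of 0.60, 0.64 and 0.53. Without the 2 farthest libraries Scg2 no longer passed (r = 0.43, adjusted p = 0.0666). Fshb passed with 4 genes: Chga, another granule protein (r = 0.84, rho = 0.79), Scg2 (r = 0.80, rho = 0.79), Rgs10 (r = 0.52, rho = 0.47, not passing without the 2 farthest libraries) and, in the opposite direction, calmodulin 2 (Calm2, r = -0.73, rho = -0.70). Their permutation p values were 1e-05, 1e-05, 0.00056 and 1e-05 (adjusted p = 0.00042, 0.00042, 0.0139 and 0.00042). With depth regressed out the Chga and Scg2 relations still passed (r = 0.58 and 0.59), and those of Rgs10 and Calm2 did not (adjusted p = 0.218 and 0.16). With depth regressed out, Scg2 with Cga (r = 0.50, adjusted p = 0.00756) and Rgs4 with Fshb (r = 0.46, adjusted p = 0.0456) passed as well. Without that step no list gene passed with Tshb, Cga, Trhr or Gnrhr.

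Fshb stood apart from the other members in following library depth. Its r with the log2 library total was 0.74 (permutation p = 1e-05, adjusted p = 0.00024 over 24 relations), with rho = 0.68 (permutation p = 1e-05, adjusted p = 0.00024), r = 0.69 without the 2 farthest libraries and r = 0.68 without the deepest library. For the other 5 members r with depth lay between -0.16 and 0.19, and none passed. Fshb was also lower where Gh1 was higher (r = -0.60, permutation p = 0.00017, adjusted p = 0.00136; rho = -0.45, permutation p = 0.00211, adjusted p = 0.0169; r = -0.49 without the 2 farthest libraries) and higher with Pomc (r = 0.58, permutation p = 9e-05, adjusted p = 0.00108; rho = 0.58, permutation p = 0.00012, adjusted p = 0.00144; r = 0.56 without the 2 farthest). Its relation to Prl (r = 0.40, permutation p = 0.0065, adjusted p = 0.039; rho = 0.41, permutation p = 0.00621, adjusted p = 0.0373) did not pass without the 2 farthest libraries (r = 0.36, adjusted p = 0.127). The library with the highest Fshb, 1650.4 CPM, was also the deepest and the one lowest in Gh1. The relations of Fshb to Gh1, Pomc and Prl were not computed with depth regressed out. They are therefore not separated here from its relation to depth.

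**Figure D4:**
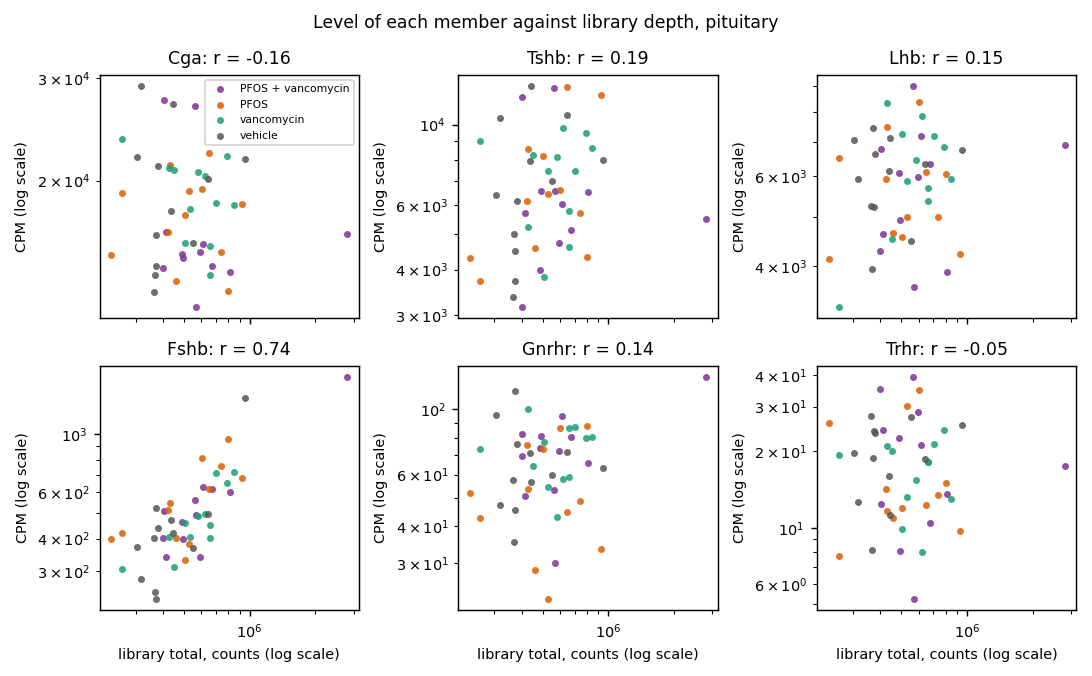
Level of each member in CPM against library total, both on log scales, in 48 pituitary libraries coloured by treatment. Fshb climbs with depth (r = 0.74) while the other 5 members do not follow it (r between -0.16 and 0.19). The r values were computed on log2 values after subtraction of group means, and the points are not centred.

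The genes most like Fshb were those of cytoplasmic ribosomal proteins, Rplp1 (r = 0.85), Rpl30 (r = 0.84) and Rps12 (r = 0.84), and the least like it was Selenok (r = -0.80). Lhb ranked 563rd for Fshb and Gnrhr 611th. With log2 depth regressed out, an alternative chosen after seeing the data, the genes most like Fshb were Creld2 (r = 0.63), Rplp1 (r = 0.61) and Scg2 (r = 0.59), so 1 of the 3 ribosomal protein genes stayed among the nearest 3. There Lhb ranked 35th and Gnrhr 61st among the genes most like Fshb, and Fshb became the gene most like Gnrhr (r = 0.49). In the same alternative the r of Lhb with Fshb was 0.53 and that of Tshb with Cga was 0.80, and all 5 pairs still passed. What makes the share of Fshb follow the total was not tested.

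Outside the pituitary, the hypothalamus held small amounts of the subunits. Over 47 hypothalamus libraries, from the same plate as the pituitary, Cga averaged 574 CPM (3.16% of its pituitary mean), Tshb 258 CPM (3.69%), Lhb 134 CPM (2.26%), Fshb 2.67 CPM (0.509%) and Gnrhr 0.875 CPM (1.32%). Gh1 stood at 1.53% and Prl at 0.531% of their pituitary means. Trhr was the exception, at 9.54 CPM or 52.6% of its pituitary mean, and 40 of 47 hypothalamus libraries were above the lowest pituitary library. That lowest pituitary value, 5.27 CPM, rested on 3 counts, and hypothalamus libraries had 0 to 14 Trhr counts (median 7). No hypothalamus library reached the lowest pituitary value of any other member. In 46 thyroid libraries each member had 2 to 8 counts in total, and in 37 liver libraries Cga had 78, Tshb 19, Lhb 17 and the other 3 between 2 and 4.

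In the hypothalamus Tshb and Cga varied widely while Lhb did not. Tshb ran from 57.2 to 764 CPM, a coefficient of variation of 66.3%, and Cga from 178 to 1585 CPM (56.5%). Lhb ran only from 85.6 to 188 CPM (17.4%), much as Gh1 did (15.8%). Tshb and Cga varied together across the 47 hypothalamus libraries, with r = 0.93 after subtraction of group means (permutation p = 1e-05, adjusted p = 3e-05 over 6 relations) and rho = 0.88 (permutation p = 1e-05, adjusted p = 3e-05). Within groups r was 0.94 in PFOS plus vancomycin rats, 0.95 in PFOS rats, 0.90 in vancomycin rats and 0.94 in vehicle rats, and it was 0.92 without the 2 farthest libraries.

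Lhb in the hypothalamus went instead with Gh1 (r = 0.68, permutation p = 1e-05, adjusted p = 3e-05; rho = 0.66, permutation p = 1e-05, adjusted p = 3e-05; r = 0.71 without the 2 farthest). Tshb and Gh1 had r = -0.07 (permutation p = 0.672, adjusted p = 0.806), and Tshb and Lhb r = 0.15 (permutation p = 0.307, adjusted p = 0.461). These 6 relations were chosen after the levels were seen. By treatment, median Tshb in hypothalamus was 220.04 CPM in PFOS plus vancomycin rats, 263 CPM in PFOS rats and 176 CPM in vancomycin rats, against 245 CPM in vehicle rats, with overlapping ranges and no test. The origin of these transcripts in the hypothalamus libraries was not tested.

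**Figure D5:**
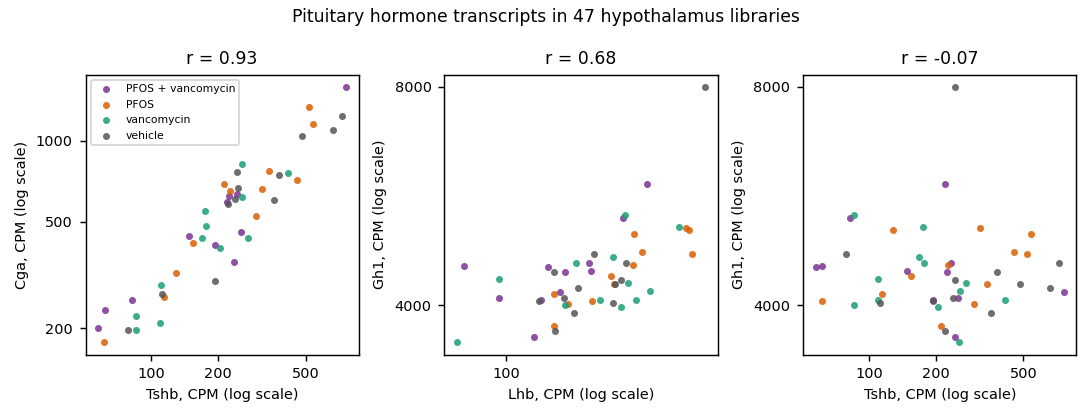
Levels in CPM, on log scales, of pairs of transcripts across 47 hypothalamus libraries coloured by treatment. Tshb and Cga lie along one line (r = 0.93) and Lhb with Gh1 along a looser one (r = 0.68), while Tshb is spread without relation to Gh1 (r = -0.07). The points are not centred, whereas r was computed after subtraction of group means.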

How the data were processed

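RNA from 4 tissues was counted by the authors with 3′ bulk RNA barcoding, per the labels' protocols. The deposited tables used hold whole-number counts of unique molecular identifiers per gene and library. Hypothalamus and pituitary share a table, and thyroid and liver share another of the same kind. Deposited tables of other kinds were not used. The meaning of the tables' name was taken from the values. BWA 0.7.4.4 and the build rn6 are listed, without a role, per the submitters' processing notes.

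Libraries under 100000 counts were left out, which left 48 of 48 pituitary and 47 of 48 hypothalamus libraries. No 2 pituitary libraries of a group agreed within sampling noise (the lowest chi-square per degree of freedom over 264 pairs was 1.73), so each counted as 1 replicate. CPM used the library total. Genes were filtered with filterByExpr (minimum count 10), scaled by TMM and fitted for all 4 treatments in 1 model with edgeR 4.0.16 (quasi-likelihood, robust, in R 4.3.3); p-values were adjusted over all 4380 genes at 0.05. The fit was also run on counts simulated from its own estimates, in which no gene's share depends on depth or barcode. The outcome of that run is not given here. Correlations used log2 CPM with a prior count of 2, less the group mean, with two-sided permutations within groups; likeness was ranked among genes of at least 20 CPM on average. The genes named are the 6 members and, for each, the 3 most like and the 1 least like; 1 of these is not reported here. Alternatives included DESeq2 1.42.0. Members, gene lists and motifs were chosen with earlier results of these data known.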

Additional observations from a re-analysis of the deposited data

How the results depend on the processing

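No member was called in any of the 8 comparisons under the alternatives to the fit that were run for it: 11 for each comparison of 2 groups, and 10 for the PFOS and vancomycin averages and their interaction, which use all groups (leaving out the deepest library was added after seeing the data), and the lowest adjusted p among 510 member values was 0.273. In 1 of them the direction of a change larger than its standard error turned: Fshb with PFOS against vehicle was -0.20 among libraries of at least 500000 counts and 0.26 in all. Of the 15 correlations, 5 passed with all libraries and 2 among the 26 libraries of at least 500000 counts (Tshb with Cga, Cga with Lhb); Fshb with Gnrhr also missed without centring (r = 0.34, adjusted p = 0.0519). Depth limited Trhr most, at 2 to 49 counts per library. No paired analysis was possible because the 4 pituitary groups share no replicate numbers; those numbers recur only between tissues.

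Counts over all genes were less stable. PFOS plus vancomycin against vehicle gave 60 calls, but 30 with only those groups fitted, 19 with log2 depth as a covariate, 0 among libraries of at least 500000 counts and 0 among libraries whose barcode had 5 G or C bases of 6, as in 7 of 12 vehicle libraries and all others. PFOS against vehicle gave 52 calls and 0 under the first and the last 2 of these, and its average over vancomycin gave 63, then 1 and 4 under the last 2. The 1 call for vancomycin was lost in 5 alternatives, and PFOS plus vancomycin against vancomycin gained 4 calls with only those groups and 2 by barcode. DESeq2 called 69 and 57 genes for PFOS plus vancomycin and PFOS against vehicle. The causes were not tested.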
